A study of Homo sapiens with 2 samples.

Results

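Transcripts of 55 ribosome biogenesis factors were compared between HBEC-3KT cells that overexpressed CBS and cells that carried the empty vector, the control. The members are the 55 genes of a fixed list, chosen by gene symbol, of 60619 genes in the deposited tables. That list was chosen with earlier results of these data known. Each symbol matched 1 row. HBEC-3KT is an immortalized line of human bronchial epithelial cells, and both groups came from this line. Cells of one group had been transduced with pLenti6-hCBS, a lentivirus that carries human CBS, and cells of the other with pLenti6 virus alone. Both groups were selected with blasticidin and cultured on gelatin-coated plates, so the control had also passed through transduction and selection. CBS encodes cystathionine beta-synthase, the first enzyme of transsulfuration, and the design asked how its expression bears on PRC2, a complex that methylates histones at silenced genes.

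Total RNA of each group was sequenced as 1 library, and the totals were 20785957 estimated counts with CBS and 20433062 in the control. With no replicates, the conditions could not be tested against each other. The 95% intervals below set 1 library against 1 library and hold nothing but counting error. In these bulk libraries, more RNA per cell and more cells with a given level cannot be told apart. CBS itself had 3669 against 280 counts, a 12.2-fold higher level (10.8 to 13.9), and the near-identical copy CBSL had 4378 against 343, so reads of the 2 genes cannot be told apart. The epithelial genes EPCAM, KRT8, KRT18 and KRT19 and the basal genes KRT5 and TP63 were abundant in both libraries, while COL1A2, COL3A1, DCN and LUM of fibroblasts, KDR and TEK of endothelium and PTPRC, CD3E and LYZ of immune cells had no count in either. Summed levels in CPM (scaled counts as a rate of the library total) for CBS and control were 6.24 and 13.8 for 7 fibroblast markers, 4.17 and 0.753 for 5 endothelial markers, and 39.6 and 124 for 6 immune markers. COL1A1 of fibroblasts had 132 counts with CBS against 270, and CDH5 of endothelium had 87 against 7. Of the immune markers, CD68 had 619 against 2259 counts and held most of both immune sums, while CD14 had 225 against 203. The other markers of these cell types had at most 8 counts. Among 6 ciliated and secretory markers, DNAH5 had 94 against 26 counts and the others at most 10. These genes were named after their values were seen. Of the 7 basal markers, 5 were lower in the CBS library by more than counting error (KRT5, KRT14, KRT15, KRT17 and ITGA6) and 1 was higher (NGFR). Over all 13304 genes above a filter on low counts, 31.1% were lower and 31.6% higher in this way. The 7 basal markers summed to 4351 against 7558 CPM. The part of these marker differences in the results below was not tested.

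Ribosomes are assembled in the nucleolus. RNA polymerase I makes a long precursor that holds most of the ribosomal RNAs, and the small-subunit processome folds and cuts its first part while a separate set of factors shapes the large subunit. Small nucleolar ribonucleoproteins (snoRNPs) modify the precursor: box C/D particles add methyl groups to ribose and box H/ACA particles turn uridine into pseudouridine. The genes for these factors are often expressed together and are known to be abundant in growing epithelial cells. By role the members comprised 27 small-subunit factors, 17 large-subunit factors, 8 snoRNP proteins and 3 nucleolar proteins with several roles (NCL, NPM1 and DDX21).

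Of the 55 members, 54 had a higher scaled level in the CBS library, against 50.2% of all 13304 genes above the filter on low counts. All 55 passed that filter. Each had at least 343 counts in either library, so none passed through 1 library alone. For 53 members the interval lay above a ratio of 1, while for PPAN it lay below (log2 fold -0.21, or 0.02 with the trend over transcript length and GC content removed) and for NOP10 it held 1. Among all genes above the filter it lay above for 31.6% and below for 31.1%, and among the 11040 genes with at least 100 counts in 1 library, where intervals are narrower, it lay above for 36.1%. The median log2 fold of the members (CBS over empty vector, prior count of 5) was 0.56, beside 0.00 over all genes. A level at least 1.5-fold higher, past counting error, was reached by 24 members, against 7.02% of all genes and 6.61% of those with at least 100 counts, and none was 1.5-fold lower, against 12.9%. A 2-fold higher level was reached by 4 members, the small-subunit factors UTP20, WDR3, PNO1 and NOL6, against 1.42% of all genes, and no member was 2-fold lower, against 5.28%. With that trend removed, 4 members were again 2-fold higher, but WDR3 (0.94) and PNO1 (0.91) were then below that line, and RRP12 (1.03) and the snoRNP protein RRP9 (1.03) were past it beside UTP20 and NOL6. Most differences were therefore moderate, and 30 members were higher by less than 1.5-fold. In the authors' TPM, a level scaled for transcript length and depth, the members summed to 8930 with CBS and 5591 in the control, a ratio of 1.60. NPM1 held 42.9% and 38.9% of these sums. Without NPM1 and NCL the other 53 members summed to 4215 and 2894 TPM, a ratio of 1.46. Log2 values given below as in TPM are differences of log2(TPM + 1), and their median was 0.64 over the members and 0.09 over all genes. Positions of genes are those of the deposited table, in GRCh38.

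**Figure D1:**
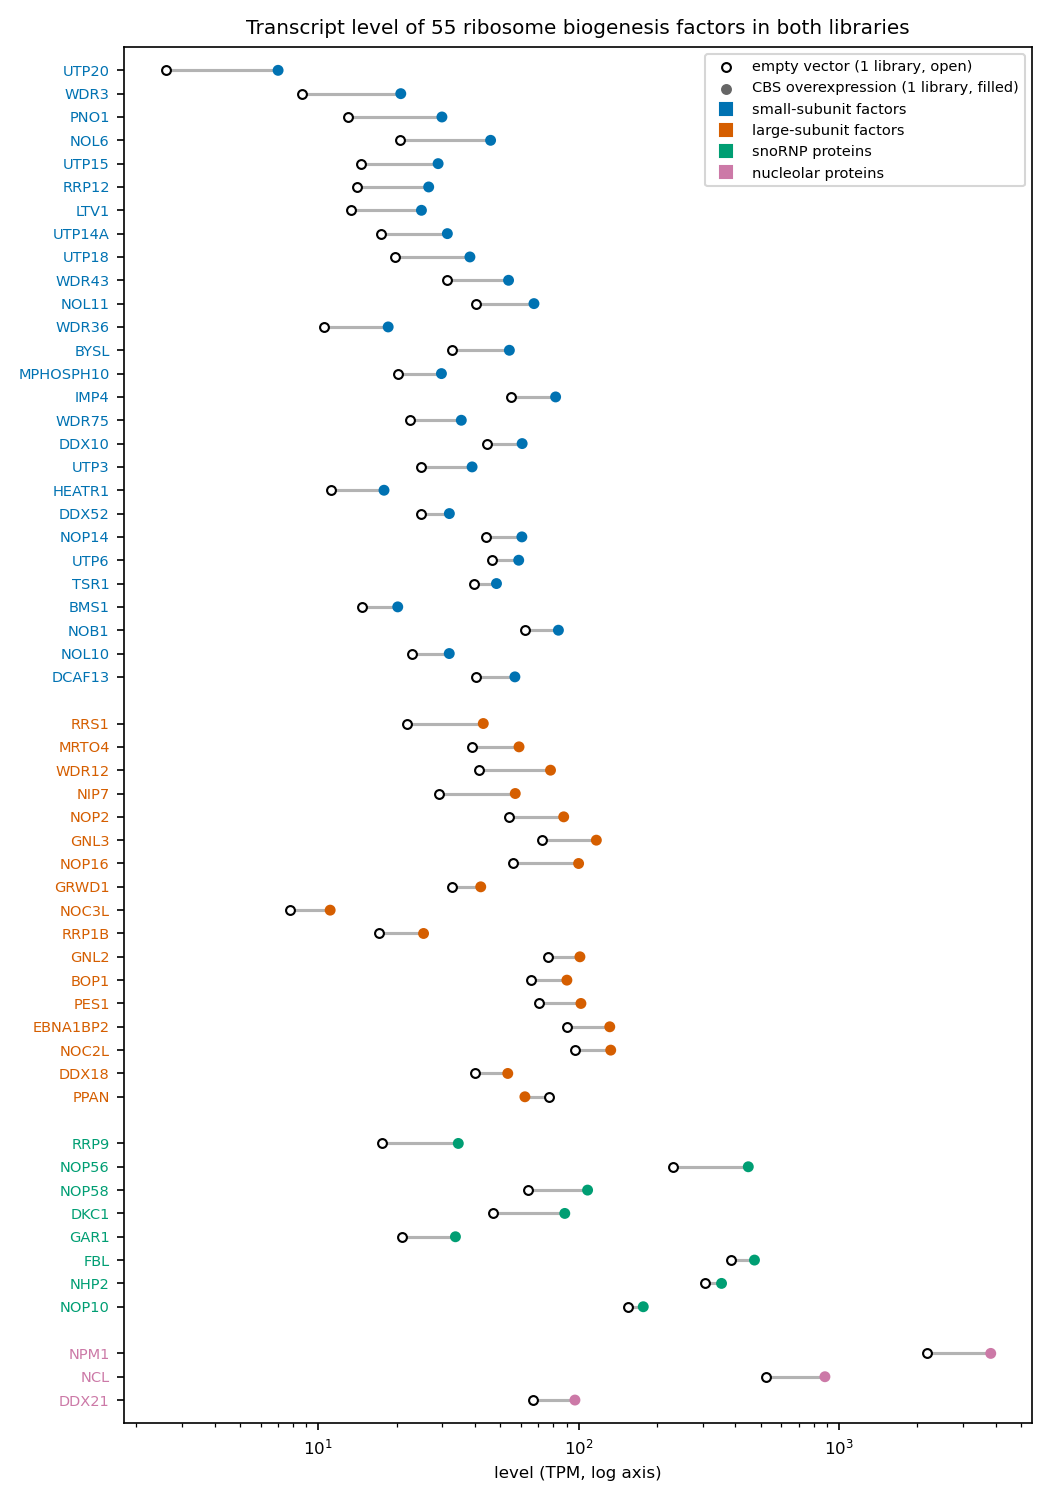
Level of each of the 55 members in TPM (log axis) in the empty-vector library (open circles) and the CBS library (filled circles), 1 library each, ordered within each role group by log2 fold. The filled circle lies to the right for 54 members and to the left for PPAN.

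The stretches before the start of the 3 members with the highest log2 folds, UTP20, WDR3 and PNO1, and of the lowest, PPAN, are shown because these genes mark both ends of the members' range on the count scale. With the length and GC trend removed, UTP20, NOL6 and RRP12 were the highest. They are RefSeq sequences of the build GRCh38.p14, and each stops before the gene begins in the deposited table, so that WDR3 and PNO1 are shorter than the 250 bases upstream of the RefSeq start. Capitals mark CACGTG, the E-box bound by MYC and related factors, which reads the same on both strands.
UTP20, chr12:101279855-101280104, plus strand: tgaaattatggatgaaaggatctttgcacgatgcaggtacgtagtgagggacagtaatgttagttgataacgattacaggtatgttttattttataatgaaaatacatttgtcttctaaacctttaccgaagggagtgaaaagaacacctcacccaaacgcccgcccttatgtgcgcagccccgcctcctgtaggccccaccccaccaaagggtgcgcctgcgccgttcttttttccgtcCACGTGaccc
WDR3, chr1:117929489-117929719, plus strand: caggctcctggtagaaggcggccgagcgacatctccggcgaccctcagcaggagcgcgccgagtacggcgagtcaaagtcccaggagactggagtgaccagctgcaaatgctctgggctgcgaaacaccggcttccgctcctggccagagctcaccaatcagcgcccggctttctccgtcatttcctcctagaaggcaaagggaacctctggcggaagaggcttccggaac
PNO1, chr2:68157638-68157843, plus strand: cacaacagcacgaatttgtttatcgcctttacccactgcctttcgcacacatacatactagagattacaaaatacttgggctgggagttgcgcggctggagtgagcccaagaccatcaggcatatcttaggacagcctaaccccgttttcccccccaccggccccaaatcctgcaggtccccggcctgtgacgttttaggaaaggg
PPAN, chr19:10105973-10106222, plus strand: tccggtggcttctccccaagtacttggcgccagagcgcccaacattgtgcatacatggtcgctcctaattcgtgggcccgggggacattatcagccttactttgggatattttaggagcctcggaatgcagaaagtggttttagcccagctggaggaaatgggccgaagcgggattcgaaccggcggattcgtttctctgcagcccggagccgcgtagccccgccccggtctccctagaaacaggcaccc
The E-box of UTP20 began 10 bases before the RefSeq start, and these letters were in none of the other 3 stretches. GC content of the 250 upstream bases was 47.6% for UTP20, 63.6% for WDR3, 56.0% for PNO1 and 58.8% for PPAN. RefSeq promoters were matched for 45 of the 55 members. In the 250 bases upstream of their starts, CACGTG occurred in 6 of the 45 (13.3%), namely EBNA1BP2, IMP4, NOP10, UTP14A, UTP18 and UTP20, beside 6.34% of 35116 promoters in all and 8.86% of 9352 promoters of genes above the filter. Members with the letters had a median log2 fold of 0.64 and the 39 without had 0.57. Those 6 included NOP10, one of the lowest members. On either strand, GGAAGTG, a core that ETS factors bind, occurred in 11 members (24.4%, beside 9.28% of all promoters and 12.8% of those above the filter). CGCGAGA, another element of housekeeping promoters, was in 7 members (15.6%, beside 2.95% and 5.78%). Their medians were 0.56 and 0.46, against 0.58 and 0.57 for members without the letters. No difference in motif shares was tested, and a match does not show binding.

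Small-subunit factors included the members with the highest folds. All 27 had an interval above a ratio of 1, 14 were at least 1.5-fold higher and 4 at least 2-fold higher, with a median log2 fold of 0.59 and a range of 0.23 to 1.3. Over all genes above the filter, these 3 shares were 31.6%, 7.02% and 1.42%. The TPM of the small-subunit factors summed to 1104 with CBS and 712 with the empty vector. UTP20 (ENSG00000120800, chromosome 12, 101280109 to 101386616), a very large helical-repeat protein of the processome, had the highest fold of all members in counts. In TPM it was at 1.16 and WDR3 at 1.17. It had 914 counts in the CBS library against 343 in the control, a log2 fold of 1.3 (1.14 to 1.5). UTP20 also had the lowest level per length among the members, at 7.01 against 2.59 TPM.

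Members of the UTP-A complex, which binds the start of the precursor and is tied to its transcription, were all higher, with a median log2 fold of 0.66. UTP15 had 993 counts with CBS against 462 in the control, a ratio of 2.01 (1.80 to 2.25). With the prior count its log2 fold was 1.0 (0.85 to 1.17) and lay just under the 2-fold line, so it was not counted as 2-fold higher. WDR43 had 2110 against 1220 counts (0.69, 0.59 to 0.80). This gene, and NOL11 with 1829 against 1079 counts (0.66, 0.55 to 0.77), stood between UTP15 and the lower members. WDR75 had 1371 against 881 counts, for a log2 fold of 0.54 (0.42 to 0.66). HEATR1, the largest subunit of this complex, had 1948 against 1267 counts and 0.52 (0.42 to 0.63). The intervals of UTP15 and HEATR1 did not overlap, so the subunits of this complex differed from each other by more than counting error.

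The UTP-B complex, which docks next and contacts the U3 snoRNA, had a median of 0.69 over its 4 members. WDR3 (chromosome 1, 117929720 to 117966542), one of its beta-propeller subunits, had 1410 against 637 counts, a log2 fold of 1.04 (0.91 to 1.19). UTP18 had 834 against 473 counts (0.71, 0.56 to 0.89) and WDR36 had 1668 against 988 (0.66, 0.54 to 0.77). UTP6, a repeat protein of the same complex, was lowest of these members with 1086 against 738 counts (0.46, 0.32 to 0.60). Its interval overlapped those of UTP18 and WDR36 but not that of WDR3. PWP2 and TBL3, further UTP-B subunits outside the members, were lower still, at 0.04 (-0.14 to 0.22) and 0.20 (0.11 to 0.30). With the length and GC trend removed they were at 0.23 and 0.47, and UTP6 at 0.37. PWP2 and TBL3 were named after their values were seen. By its 3 members, the MPP10 complex was the most even of the small-subunit sets. MPHOSPH10, its scaffold, had 807 against 498 counts, for a log2 fold of 0.59 (0.44 to 0.76). IMP4, which helps U3 pair with the precursor, had 1548 against 981 counts and 0.56 (0.44 to 0.68). UTP3 had 1147 against 739 counts and 0.53 (0.40 to 0.67), so the intervals of all 3 overlapped. IMP3, a further subunit outside the members, was at 0.17 (0.06 to 0.28), below these 3 intervals, or 0.32 with the length and GC trend removed. IMP3 was named after its value was seen.

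The other 9 processome members held both the highest and the lowest small-subunit factors, with a median log2 fold of 0.46. NOL6 (chromosome 9, 33461441 to 33473930), the human counterpart of yeast Utp22, had 2506 against 1146 counts, for a log2 fold of 1.03 (0.93 to 1.13). UTP14A, a cofactor of a processome helicase, had 1096 against 619 counts and 0.72 (0.58 to 0.87). Its retrotransposed copy UTP14C had 409 against 361 counts, so the split of reads between both is uncertain. The helicases DDX10 and DDX52 had 1263 against 813 and 1159 against 785 counts, with log2 folds of 0.54 (0.41 to 0.67) and 0.46 (0.33 to 0.60). These 2 enzymes differed by less than their counting error. NOP14, which joins early processome proteins, had 2395 against 1629 counts and 0.46 (0.37 to 0.55). The gene NOP14-AS1 on the opposite strand had 769 against 1529 counts, a difference in the other direction. BMS1, a GTPase of the processome, had 2262 against 1674 counts and 0.34 (0.24 to 0.43), and its 18 pseudogene rows summed to 295 against 367. NOL10, the counterpart of yeast Enp2, had 1188 against 894 counts and 0.31 (0.19 to 0.44), or 0.20 with the transcript length and GC trend removed. DCAF13 had 1191 against 948 counts and the lowest log2 fold of the small-subunit factors, 0.23 (0.11 to 0.36). That value was 0.49 in TPM, where TSR1 was lowest with 0.28, and 0.12 with the trend removed.

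Later steps of small-subunit assembly gave a median of 0.68 over 6 members. PNO1 (chromosome 2, 68157844 to 68176238), which holds the nuclease NOB1 at the end of the small-subunit RNA, had 871 against 395 counts, for a log2 fold of 1.03 (0.87 to 1.22). NOB1, the nuclease that makes the final cut, had 2033 against 1514 counts and 0.33 (0.23 to 0.42). These partners thus had intervals that did not overlap. RRP12, an export factor, had 1643 against 840 counts and 0.87 (0.75 to 0.99). LTV1, which is released from the maturing particle in the cytoplasm, had 651 against 355 counts and 0.77 (0.59 to 0.97). BYSL, the counterpart of yeast Enp1, had 972 against 599 counts and 0.60 (0.45 to 0.75). TSR1, a GTPase-like protein that sits on the late particle, was nearer NOB1 with 2830 against 2081 counts and 0.35 (0.26 to 0.43).

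**Figure D2:**
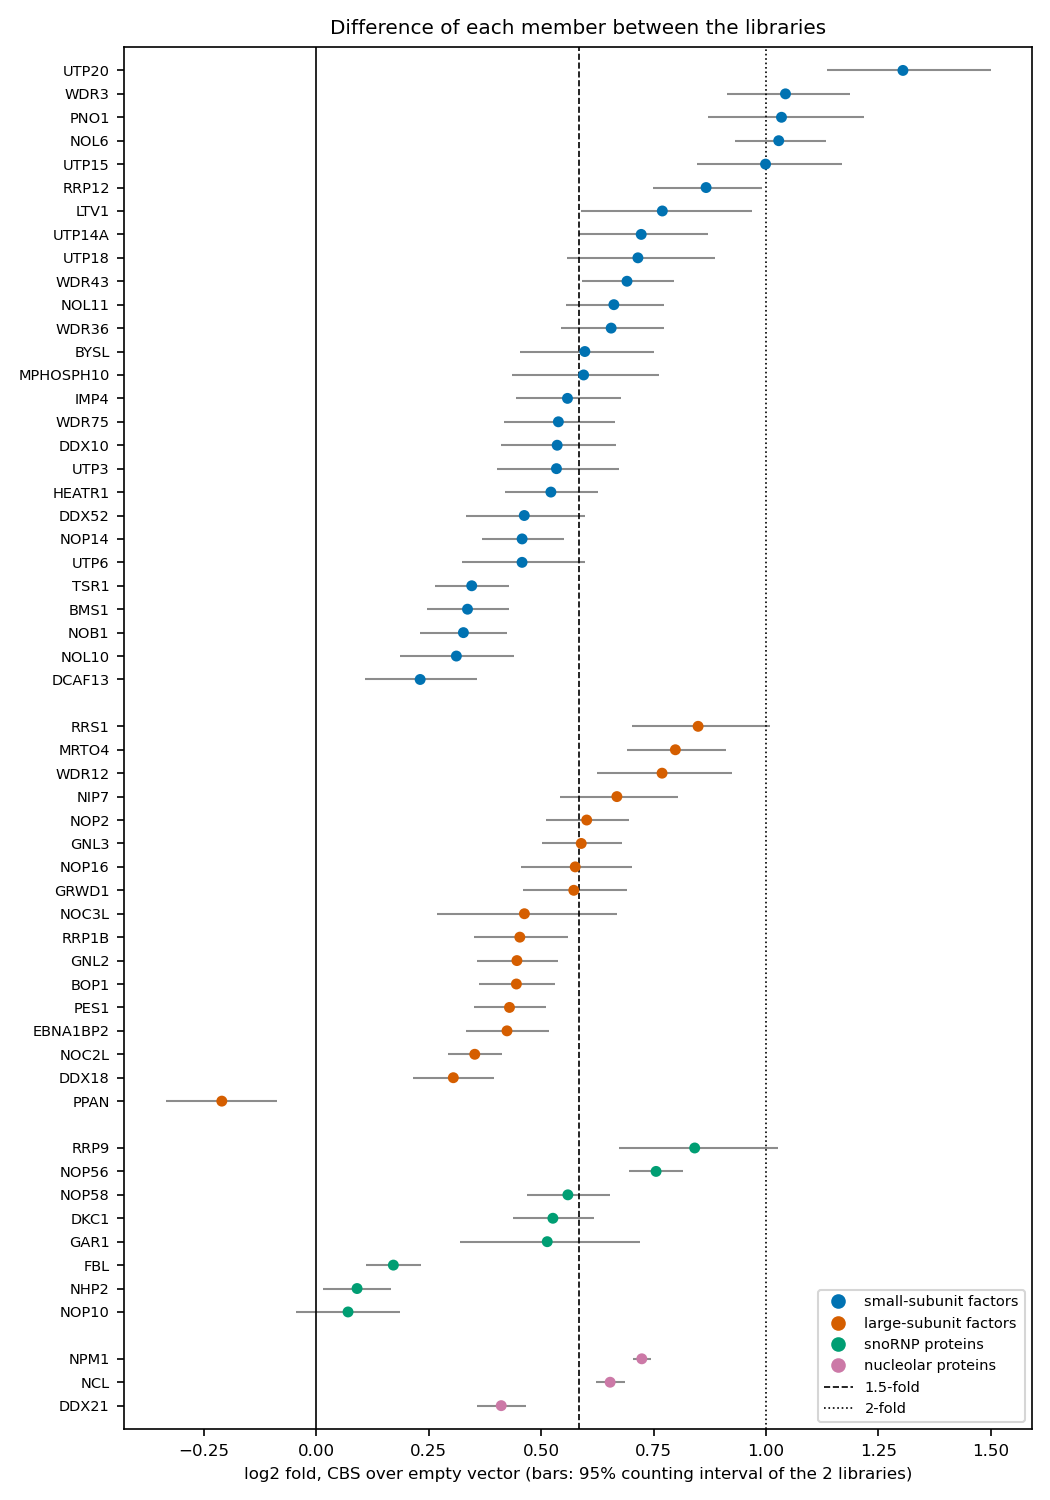
Log2 fold (CBS over empty vector) of each member with its 95% counting interval from 1 library per group, ordered within role groups; dashed and dotted lines mark 1.5-fold and 2-fold higher. UTP20, WDR3, PNO1 and NOL6 lie past the 2-fold line, and PPAN is the 1 member below 0 (0.02 with the length and GC trend removed).

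Large-subunit factors were higher in 16 of 17 cases, with a median log2 fold of 0.46 and a range of -0.21 to 0.85. Of these, 6 were at least 1.5-fold higher and none 2-fold higher. Over all genes above the filter, 50.2% were higher, 7.02% at least 1.5-fold higher and 1.42% at least 2-fold higher. At so low a share, none past 2-fold sets the 17 factors apart in no way. The TPM of the large-subunit factors summed to 1294 with CBS and 888 with the empty vector. The median was below that of the small-subunit factors, but with the length and GC trend removed the order turned, at 0.57 for large-subunit and 0.53 for small-subunit factors. No order between the subunits is therefore drawn.

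RRS1, which brings the 5S particle into the large subunit, was the highest large-subunit factor in counts, with 1037 counts in the CBS library against 536 in the control and a log2 fold of 0.85 (0.70 to 1.01). In TPM it was at 0.94 and NIP7 at 0.95. MRTO4, which keeps the place of a ribosomal stalk protein, had 1924 against 1032 counts and 0.80 (0.69 to 0.91). Its value in TPM was 0.58, below this interval. EMC1, on the opposite strand of MRTO4, had 2147 against 1799 counts. WDR12 of the PeBoW complex followed with 1039 against 568 counts and 0.77 (0.62 to 0.92). The partners PES1 and BOP1, which act with it in cutting the large-subunit precursor, had 3059 against 2122 and 2821 against 1936 counts. Their log2 folds of 0.43 (0.35 to 0.51) and 0.44 (0.36 to 0.53) had overlapping intervals and were below that of WDR12. With the trend removed, the values were 0.57 for PES1, 0.72 for BOP1 and 0.67 for WDR12. The order of the 3 subunits thus depended on that setting.

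NIP7, a small RNA-binding factor, had 1285 against 754 counts, for a log2 fold of 0.67 (0.54 to 0.80). NOP2, a methyltransferase of large-subunit RNA, had 2450 against 1508 counts and 0.60 (0.51 to 0.70). GNL3, the nucleolar GTPase also called nucleostemin, had 2682 against 1665 counts and 0.59 (0.50 to 0.68). These 3 had overlapping intervals and lay close to the 1.5-fold line. GNL2, the related GTPase, had 2424 against 1662 counts and 0.45 (0.36 to 0.54). NOP16 and GRWD1 were just short of 1.5-fold on the count scale, with 1404 against 879 and 1560 against 979 counts. Their log2 folds were 0.58 (0.46 to 0.70) and 0.57 (0.46 to 0.69). NOP16 was past 1.5-fold in TPM (0.83) and with the trend removed (0.62). GRWD1, a chaperone of a ribosomal protein, was at 0.36 in TPM and 0.76 with the trend removed. RRP1B had 1842 against 1257 counts (0.45, 0.35 to 0.56) and EBNA1BP2 had 2367 against 1648 (0.42, 0.33 to 0.52). The NOC proteins, which accompany early large-subunit particles, were moderate: NOC3L had 515 against 348 counts and 0.46 (0.27 to 0.67), and NOC2L had 5255 against 3847 and 0.35 (0.29 to 0.41). The helicase DDX18 had 2316 against 1752 counts and 0.30 (0.21 to 0.40), or 0.19 with the trend removed.

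PPAN (ENSG00000130810, chromosome 19, 10106289 to 10111634), the counterpart of yeast Ssf1 in early large-subunit assembly, was the member with a lower level in the CBS library. It had 1021 counts with CBS against 1105 in the control, and 62.2 against 76.9 TPM. The log2 fold was -0.21 (-0.34 to -0.09), or -0.30 in TPM. PPAN is a GC-rich transcript, and with the length and GC trend removed its log2 fold was 0.02, so the lower level held only without that correction. The readthrough PPAN-P2RY11 shares its sequence and had 131 against 124 counts, so the assignment of reads to PPAN is uncertain.

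**Figure D3:**
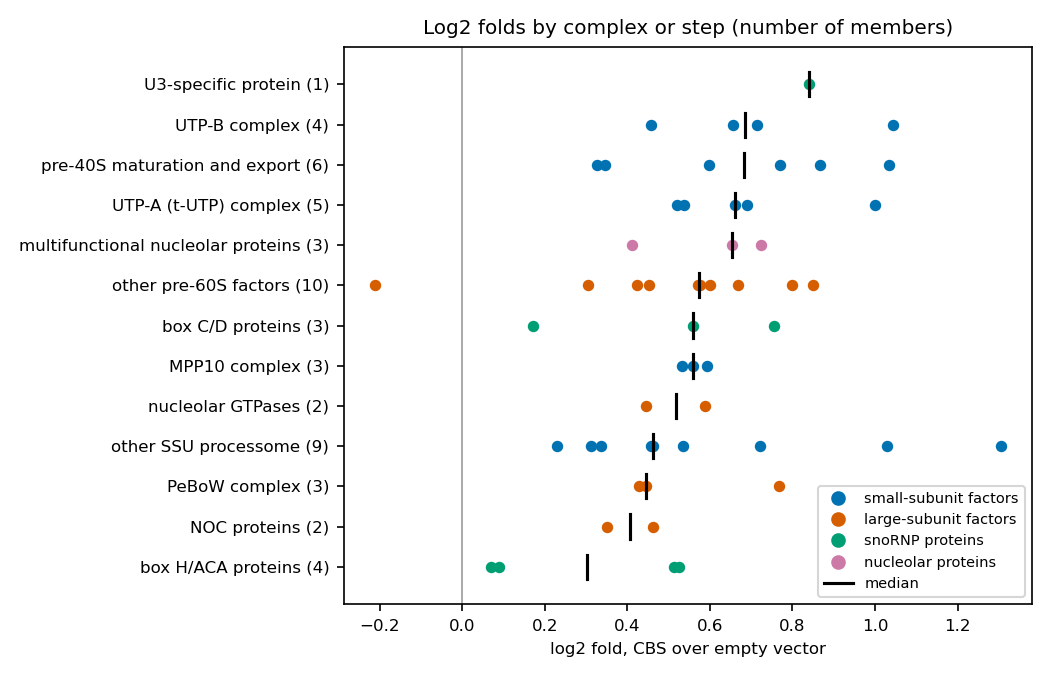
Log2 folds (CBS over empty vector) of the members of each complex or step, with the number of members in brackets and the median as a black bar; each point is 1 gene measured in 1 library per group. Medians run from 0.30 for the box H/ACA proteins to 0.84 for RRP9, and the subunits of most complexes are spread.

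The 8 snoRNP proteins had a median log2 fold of 0.52. For 7 the interval was above a ratio of 1, for NOP10 it held 1, and 2 were at least 1.5-fold higher. Over all genes above the filter, the interval was above for 31.6%, and 7.02% were at least 1.5-fold higher. In TPM, on the log2(TPM + 1) scale, the median of the snoRNP proteins was 0.70. RRP9, a protein of the U3 snoRNP, was highest in counts with 767 counts in the CBS library against 398 in the control, a log2 fold of 0.84 (0.67 to 1.03). In TPM it was at 0.93 and NOP56 at 0.95. The 3 members from the shared core of the box C/D particles split. NOP56 (chromosome 20, 2652145 to 2658393) had 6287 against 3479 counts and 0.76 (0.70 to 0.82), and its partner NOP58 had 2498 against 1583 and 0.56 (0.47 to 0.65). FBL, the fibrillarin methyltransferase of the same particle, had 4725 against 3922 counts, for a log2 fold of 0.17 (0.11 to 0.23), or 0.30 in TPM. The 3 intervals did not overlap. SNU13, also of this core but listed with the snoRNP assembly factors, was at 0.13 (0.04 to 0.22), and its interval overlapped that of FBL. SNU13 was named after its value was seen. By level per length, FBL and NOP56 stood at 385 and 232 TPM with the empty vector but at 474 and 449 TPM with CBS.

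In box H/ACA particles, the 4 core proteins were not alike. DKC1, the pseudouridine synthase dyskerin, had 2601 against 1687 counts, for a log2 fold of 0.53 (0.44 to 0.62), or 0.90 in TPM. GAR1, its glycine- and arginine-rich partner, had 526 against 343 counts and 0.51 (0.32 to 0.72). NHP2 had 3078 against 2702 counts and 0.09 (0.02 to 0.17), and NOP10 had 1301 against 1158 and 0.07 (-0.04 to 0.19). NHP2 and NOP10, small proteins that bind beside DKC1, thus had ratios of only 1.06 (1.01 to 1.12) and 1.05 (0.969 to 1.14), and their intervals did not reach those of DKC1 and GAR1. In TPM their log2 values were 0.21 and 0.19, below the 0.30 of FBL. With the trend removed, NOP10 was at 0.11 and NHP2 at 0.25, the latter above FBL at 0.21. By level per length the order was the same in both libraries: NHP2 at 354 against 305 TPM, NOP10 at 177 against 155, DKC1 at 88.5 against 46.9 and GAR1 at 33.6 against 20.9.

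The nucleolar proteins NPM1, NCL and DDX21 had the highest counts of all members. NPM1 (chromosome 5, 171387116 to 171411137), a chaperone that forms the outer layer of the nucleolus, had 53482 counts with CBS against 30269 in the control, a log2 fold of 0.72 (0.70 to 0.74). Its 45 pseudogene rows summed to 360 against 282 counts, 0.673% and 0.932% of its own. NCL, nucleolin, had 21308 against 12662 counts and 0.65 (0.62 to 0.69). DDX21, a helicase that links transcription and processing of ribosomal RNA, had 6568 against 4616 counts and 0.41 (0.36 to 0.47). DDX21 was thus below the other 2 by more than counting error. Across the 55 members the log2 fold had a Spearman correlation of -0.39 with the mean level as log2(TPM + 1), and of 0.08 across all 13304 genes. Both are descriptions over genes of the same 2 libraries, and low genes also carry wider intervals.

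Some members are also hosts of snoRNA genes in their introns. In GENCODE 29, 28 snoRNA genes lie within 9 members on the same strand (DKC1, GNL3, NCL, NOL11, NOP56, NOP58, PPAN, TSR1 and WDR43), which is 16.4% of members beside 1.69% of 11793 protein-coding genes above the filter. Host members had a median log2 fold of 0.59 and the other 46 members 0.54. Over all 199 hosts above the filter the median was 0.11. Of the 28 snoRNAs 7 had any count and the highest had 19, so their own levels cannot be compared from these counts. Strandedness was not given in the sources used here, and 11 members overlap a gene on the opposite strand that had over 25% of their counts in a library. Besides NOP14 and MRTO4 these were HEATR1, UTP15, IMP4, DCAF13, TSR1, GNL3, NOP16, NIP7 and NHP2. The median log2 fold of the other 44 members was 0.55.

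Further genes of the same pathway, from lists written with earlier results of these data known, were higher too but less far. Over 112 other biogenesis factors in 3 lists, all above the filter, 96 lay above a ratio of 1 with their whole interval, 1 lay below it and 15 could not be told from it, with a median log2 fold of 0.37. Over all genes, intervals lay above a ratio of 1 for 31.6% and below it for 31.1%. Of the 112 factors, 15 (13.4%) were at least 1.5-fold higher and none 2-fold, beside 7.02% and 1.42% of all genes. Among 37 genes listed as other small-subunit factors the median was 0.34. UTP4, a further UTP-A subunit, was at 0.63 (0.55 to 0.72) and NAT10, an RNA acetyltransferase, at 0.62 (0.52 to 0.72). This list holds RRP1, whose paralog RRP1B is counted above as a large-subunit factor, so the division of the lists by subunit is approximate. Among 54 genes listed as other large-subunit factors the median was 0.37. URB2 had 525 against 245 counts and 0.99 (0.78 to 1.23), and GNL3L, a paralog of GNL3, had 250 against 120 and 0.93 (0.64 to 1.29). NOP53, with 3251 against 4167 counts and -0.46 (-0.52 to -0.39), was the 1 factor with an interval below a ratio of 1. It was named after its value was seen, and it was at -0.24 with the trend removed. Among 21 assembly factors of snoRNPs and RNase MRP the median was 0.44, with the RNase subunits RPP40 at 0.84 (0.51 to 1.23) and POP1 at 0.76 (0.51 to 1.04). Whether the members stand above these other factors was not tested.

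**Figure D4:**
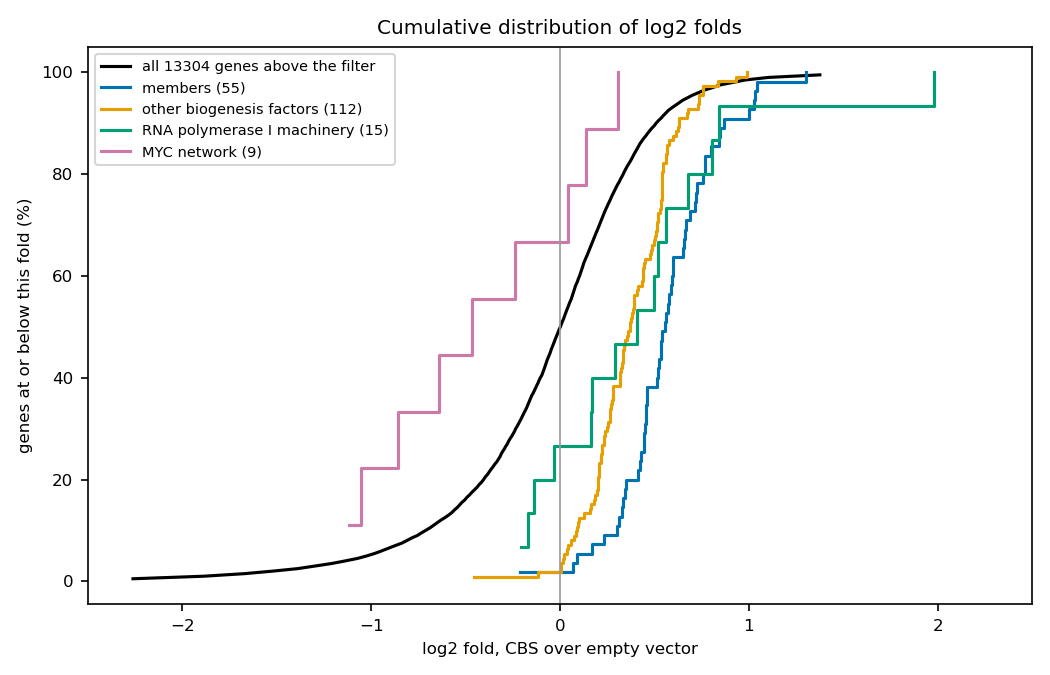
Share of genes at or below each log2 fold (CBS over empty vector) for all genes above the filter, the 55 members, 112 other biogenesis factors, RNA polymerase I machinery and the MYC network, from 1 library per group. The median is 0.00 for all genes, 0.56 for the members, 0.37 for the other factors and -0.47 for the MYC network, whose genes here are mostly repressors.

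Around these steps, the RNA exosome and trimming enzymes, which finish the ends of ribosomal RNA, numbered 18 with a median log2 fold of 0.40. Of these, 16 had an interval above a ratio of 1 and none below. For this list and those after it, the shares over all genes were 31.6% above and 31.1% below. EXOSC9, an exosome ring subunit, had 1370 against 721 counts and 0.82 (0.70 to 0.96). MTREX, the exosome's helicase, was at 0.59 (0.49 to 0.69). RNA polymerase I genes were more mixed, with a median of 0.41 over 15 genes, 10 intervals above a ratio of 1 and 2 below, those of TAF1C and POLR1D, which were named after their values were seen. TAF1C was at -0.20 but at 0.03 with the trend removed, and POLR1D was at -0.17 and -0.19. POLR1G, a polymerase subunit whose gene overlaps ERCC1 on the opposite strand, had 868 against 202 counts and 1.98 (1.78 to 2.23). POLR1B and POLR1E, core and accessory subunits, were at 0.84 (0.71 to 0.99) and 0.81 (0.65 to 0.98). Most proliferation markers were also higher, with 13 of 16 intervals above a ratio of 1, none below and a median of 0.45. The replication helicase genes MCM2 and MCM6 were both at 0.96 (0.88 to 1.05 and 0.87 to 1.06), while MKI67, a general marker of cycling cells, had 9582 against 8713 counts and 0.04 (-0.00 to 0.08). AURKB at 0.02 (-0.10 to 0.14) and CDK1 at 0.07 (-0.04 to 0.17) also had intervals that held a ratio of 1. BUB1, TOP2A and CCNB1 were at 0.16, 0.19 and 0.23, so the list was uneven. MKI67 and these further markers were named after their values were seen. The part of cell cycling in the members' values was not tested.

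**Figure D5:**
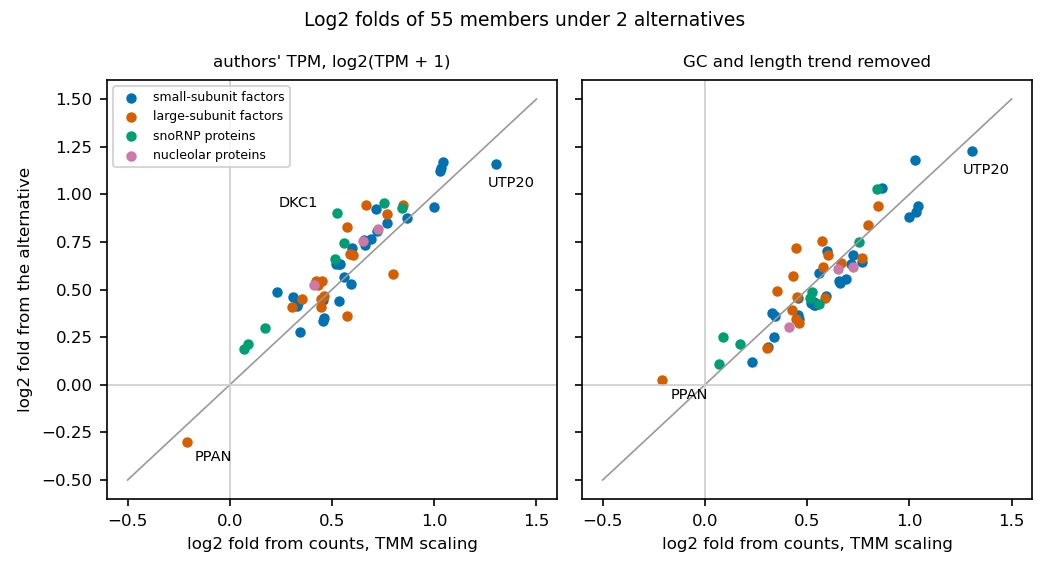
Log2 fold of each member from TMM-scaled counts (x axis) against the value from the authors' TPM (left) and with the length and GC trend removed (right); each point is 1 gene and the diagonal marks equal values. All members but PPAN lie above 0 in both panels, PPAN being at -0.30 on the left and 0.02 on the right.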

How the data were processed

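RNA sequencing libraries of 2 groups were analysed, 1 per group, grouped by genotype and title. Trimmomatic 0.39, STAR 2.6.1d, RSEM 1.3.2 and GRCh38 appear in the submitters' processing notes, with neither role nor order. Strandedness, layout and annotation release are not given in the sources used here. Expected counts, which may be fractional, and TPM were deposited by the authors for each gene. The counts were rounded here.

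The filter asked for 10 counts in either library and a mean CPM of 1 or more, which left 13304 genes. TMM factors were taken from edgeR 4.0.16 (R 4.3.3) and no model was fitted. Log2 folds carry a prior count of 5. Intervals are exact 95% Clopper-Pearson intervals of the count ratio without the prior count. They cover counting error only, and amplified reads are not independent molecules. A gene was counted at 1.5-fold or 2-fold when its interval also excluded a ratio of 1. The calculation was tested on simulated data.

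Alternatives were size factors from DESeq2 1.42.0, library totals, log2(TPM + 1) called on the fold alone, prior counts of 1 and 20, no filter, a filter of 100 counts, and a lowess trend (span 0.3, statsmodels 0.14.6) on GC content and length of the longest GENCODE 29 transcript removed. Members, lists and motifs were chosen with earlier results of these data known. Every member was named. From other lists up to 3 genes with at least 100 counts and the largest absolute log2 folds were eligible, and MYC. Promoters are from RefSeq. Coordinates are those of the deposited table.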

Additional observations from a re-analysis of the deposited data

How the results depend on the processing

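The members kept their common direction under each of the 8 alternatives: 54 were higher and 1 lower under 7 of them, and all 55 were higher with the length and GC trend removed. There PPAN turned from -0.21 to 0.02 (0.0248), and of the 4 members past 2-fold WDR3 (0.94) and PNO1 (0.91) gave way to RRP12 and RRP9 (1.03 each). The median log2 fold of all members ranged from 0.49 with that trend removed to 0.64 in TPM. That of the small-subunit factors ranged from 0.53 to 0.67 and that of the large-subunit factors from 0.44 to 0.57. For the snoRNP proteins it was 0.44 with the trend removed, and 0.70 in TPM, above the spread allowed by counting error. The cause was not tested. From 20 (filter of 100 counts) to 34 (library totals) members were at least 1.5-fold higher, where library totals also moved the median of all genes to 0.07 and TPM moved it to 0.09, and 4 or 5 were at least 2-fold higher. None was 1.5-fold lower. Single members left their counting interval in 23 cases in TPM and 17 with the trend removed, besides PPAN. No paired analysis was possible because each group holds 1 library. For the same reason no library could be left out. With at least 343 counts per member and library, counting error is small for these genes, and the spread between cultures is unknown.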

Other observations

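Genes of the MYC network, which includes the factor best known for driving ribosome biogenesis genes, were mostly lower in the CBS library. MYC had 4863 counts with CBS against 5360 in the control, a log2 fold of -0.24 (-0.29 to -0.18). Several repressors that bind its partner MAX were lower: MXI1 had 472 against 962 counts and -1.12 (-1.29 to -0.96), MXD1 had 766 against 1492 and -1.05 (-1.19 to -0.93), and MXD4 had 308 against 526 and -0.86 (-1.08 to -0.66). Of the 9 genes of this list above the filter, 6 were lower past counting error and 1 was higher (MAX, named after its value was seen), beside 31.1% lower and 31.6% higher over all genes. Besides MYC, all of those lower were repressors that bind MAX, among them MNT at -0.64 (-0.79 to -0.50) and MXD3 at -0.47 (-0.74 to -0.21). MNT and MXD3 were named after their values were seen. The median of this list, made up mostly of repressors, was -0.47, or -0.27 with the length and GC trend removed. MGA, another MAX-binding repressor, was at 0.04 (-0.15 to 0.24) and was named after its value was seen.

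Among genes that link faulty ribosome assembly to p53, RPL11, which binds MDM2 as part of the 5S particle, had 16544 against 17366 counts and -0.17 (-0.20 to -0.14). Of the 5 genes of this list, 4 had a higher level past counting error, beside 31.6% of all genes. One of them, RPL5, named after its value was seen, turned from 0.09 to -0.04 with the trend removed. The list's median was 0.09, or 0.28 with the trend removed and 0.21 in TPM. MDM2 itself had 27642 against 18521 counts, for a log2 fold of 0.48 (0.45 to 0.51). HEATR3, the importer of RPL5, had 426 against 268 counts and 0.56 (0.35 to 0.80).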
